A study of Homo sapiens with 4 samples.

Results

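The mRNAs of 10 proteins that read or remove N6-methyladenosine (m6A) were examined in IGF2BP3 RNA immunoprecipitation sequencing (RIP-seq) of OE-19 cells. IGF2BP3 is itself an RNA-binding protein counted among the m6A readers, and OE-19 is an established line of adenocarcinoma of the esophagogastric junction. RIP-seq pulls a protein down with an antibody and sequences the RNA that comes with it. The 4 samples were 2 IGF2BP3 RIP replicates and 2 input replicates, which the labels mark as lysate RNA without antibody. All came from the same line, grown in the same medium with no treatment named, and the labels give UV fixation for them. The input values were not analysed here, so the pull-down is described by the peaks that the authors' caller deposited for each RIP replicate. The lists hold no expression values, so the cell line could not be checked by markers.

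The members were a given list of genes, and a peak was assigned to a member when its summit lay in any GENCODE 44 exon of that gene. By this rule 42 of 44622 peaks of replicate 1 and 36 of 42723 peaks of replicate 2 belonged to members. None of these 78 summits lay in an exon of another gene. The fold enrichment used below is the caller's ratio of RIP pileup over local background at the summit. The q is the p as corrected by the caller. The lists were deposited down to an uncorrected p of 0.01. Many q values lie above that limit, so the correction did not cover the deposited peaks alone.

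m6A is a methyl mark that is laid on nascent transcripts and recognised by reader proteins. YTHDF1, YTHDF2 and YTHDF3 are cytoplasmic readers with a YTH domain that binds the methylated base. YTHDC1 is the nuclear YTH reader, and YTHDC2 joins a YTH domain to an RNA helicase. HNRNPA2B1 and HNRNPC are nuclear ribonucleoproteins that bind near m6A or at RNA opened by it, and FMR1 is a polyribosome-associated RNA-binding protein that has been linked to methylated transcripts. FTO and ALKBH5 are the demethylases, or erasers.

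The mRNAs of 7 of the 10 members had an exonic peak in both replicates, against 28.1% of 19688 protein-coding genes with a canonical mRNA. These were YTHDF1, YTHDF3, YTHDC1, YTHDC2, FMR1, FTO and ALKBH5. The members were chosen with earlier results of these data known, and the 28.1% covers annotated genes whether expressed or not. With protein-coding genes split by mRNA length into 4 classes of equal size, the share differed by class. It was 53.6% in the class of YTHDF3, YTHDC1, YTHDC2 and FTO. In the class of YTHDF1, FMR1, ALKBH5, HNRNPA2B1 and HNRNPC it was 37.6%, and in that of YTHDF2 16.4%. YTHDF2 had 1 peak in replicate 1 and 0 in replicate 2. HNRNPA2B1 and HNRNPC had none in either, as was the case for 63.8% of protein-coding genes. FTO had 11 peaks in replicate 1, the most of the members, and 9 in replicate 2, as many as FMR1. These were 26.2% and 25% of all member peaks. No test was made, since the lists hold peaks of a single group without read counts, and member genes are not replicates. Without abundance values, more transcript and more binding per transcript cannot be told apart, and a gene without a peak is not shown to be unbound.

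The stretches below lay under peaks of both replicates inside coding exons. They are shown because they carry the highest FTO fold of each replicate (exons 7 and 8), the FTO site with the same summit base in both (exon 6) and, for 3 other members, a site found in both libraries. They are the sense strand of the GENCODE 44 transcript in GRCh38, cut to the overlap of the replicate peaks and to the exon. Capitals mark GGAC, the core of the sequence the study names for m6A, and CACA, a short sequence known from IGF2BP binding studies.
FTO exon 6, chr16:53879860-53879986, plus strand: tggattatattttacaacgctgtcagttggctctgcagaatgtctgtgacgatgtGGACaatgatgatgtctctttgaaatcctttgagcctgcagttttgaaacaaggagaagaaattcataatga
FTO exon 7, chr16:53888875-53888951, plus strand: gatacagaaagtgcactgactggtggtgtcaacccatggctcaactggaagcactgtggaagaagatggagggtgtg
FTO exon 8, chr16:53934006-53934107, plus strand: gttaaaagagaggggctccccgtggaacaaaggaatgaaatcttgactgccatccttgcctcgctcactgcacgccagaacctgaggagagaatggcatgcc
FMR1 exon 16, chrX:147945538-147945616, plus strand: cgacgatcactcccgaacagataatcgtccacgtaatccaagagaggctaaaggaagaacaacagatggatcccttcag
YTHDF1 exon 3, chr20:63213864-63213943, minus strand: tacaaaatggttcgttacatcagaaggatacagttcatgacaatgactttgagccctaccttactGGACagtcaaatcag
YTHDC2 exon 25, chr5:113581449-113581608, plus strand: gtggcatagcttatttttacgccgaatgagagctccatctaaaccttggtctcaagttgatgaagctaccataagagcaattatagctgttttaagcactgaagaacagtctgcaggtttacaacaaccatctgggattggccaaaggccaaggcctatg

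GGAC occurred once in the FTO exon 6 stretch and once in the YTHDF1 exon 3 stretch, each time within TGGAC. It was found in none of the other 4 stretches, and CACA in none of the 6. The stretch of FMR1 also lacked CAT, which the YTHDC2 stretch held 4 times.

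FTO, the first RNA demethylase described for m6A (ENSG00000140718.22, chromosome 16, 53701692 to 54158512, plus strand), had the highest fold of all members in both replicates. Its strongest peak reached 4.58 in replicate 1 and 5.42 in replicate 2, a mean of 5.0 ± 0.595 (SD, n = 2). These values stood at percentiles 79.9 and 92.7 of the highest folds of protein-coding genes with a peak in the same replicate. They came from different exons. The replicate 1 maximum was in exon 7, with a q of 0.00356, and the replicate 2 maximum in exon 8, with a q of 0.00141. Each of these sites had a peak in the other replicate as well, of 3.18 in exon 7 in replicate 2 and 2.52 in exon 8 in replicate 1, so that both sites were found in both replicates but in a different order of fold.

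Of the FTO peaks, 8 of 11 in replicate 1 and 8 of 9 in replicate 2 overlapped a peak of the other replicate. Summits were found in 8 of the 9 FTO exons when both replicates were combined. In exon 6 both replicates placed the summit on the same base, 53879923, with folds of 4.06 and 4.06 and a q of 0.0663 and 0.0864. In exon 4 the folds were 2.52 and 3.0, and the summits lay 23 nt apart. In exon 3 the shared peak had folds of 3.24 and 3.28, with summits 116 nt apart. An exon 2 peak with a fold of 4.18 and a q of 0.0211 was found in replicate 1 alone.

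The end of the FTO coding sequence had a shared peak as well. Its summits lay 80 nt and 72 nt before the last base of the CDS, with folds of 4.55 and 3.68. The FTO 3′ UTR is 10026 nt long in the canonical transcript, and 2 summits of replicate 1 and 3 of replicate 2 fell within it. A shared site had its summit 1029 nt past the CDS in replicate 1 and 1306 nt in replicate 2, with folds of 3.53 and 3.51. Another had summits at 2140 nt in replicate 1 and 2300 nt in replicate 2, with folds of 3.33 and 3.65. The summits were thus 277 and 160 nt apart. The last base covered by any peak was 2514 nt past the CDS, which left 7512 nt of the annotated 3′ UTR without a peak in either list.

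ALKBH5, the other m6A eraser (ENSG00000091542.9, chromosome 17, 18183078 to 18209954, plus strand), had 1 peak per replicate. The replicate 1 peak lay in the 3′ UTR, 1166 nt past the CDS, with a fold of 2.57. The replicate 2 peak lay 153 nt before the end of the CDS, with a fold of 3.40. Both were in exon 4, their summits were 1319 nt apart and they did not overlap, and both had a q of 1. FTO had 5.93 and 3.95 summits per kb of CDS in replicates 1 and 2, and ALKBH5 had 0 and 0.844. By the mean of the replicates FTO was the highest and ALKBH5 the lowest of the members with a peak in both, although in replicate 2 YTHDC1 was lower, at 0.458.

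**Figure D1:**
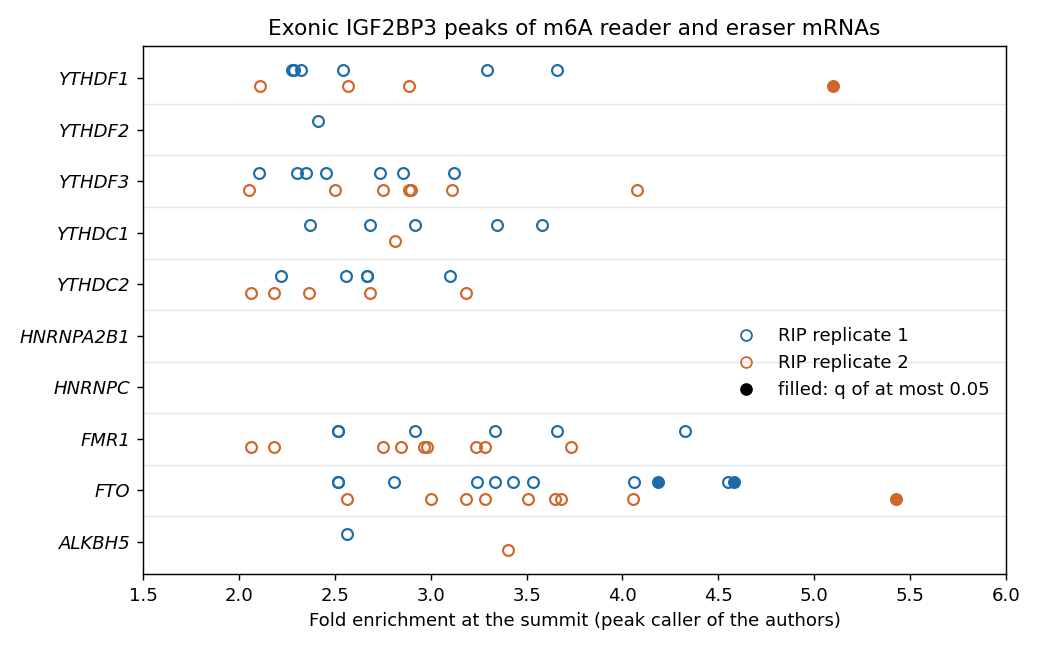
Fold enrichment at the summit (horizontal axis, ratio) of each exonic peak of the 10 members (rows), with RIP replicate 1 above and replicate 2 below in each row and filled points for a q of at most 0.05. FTO holds 3 of the 4 filled points and the highest fold, 5.42, YTHDF1 holds the other at 5.10, and the rows of HNRNPA2B1 and HNRNPC are empty.

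Among the cytoplasmic readers, YTHDF1 (ENSG00000149658.18, chromosome 20, 63195429 to 63216139, minus strand) had 6 and 4 exonic peaks in replicates 1 and 2, and 3 in each overlapped between replicates. Its highest folds were 3.66 in the 3′ UTR in replicate 1 and 5.10 in the 5′ UTR in replicate 2. The latter peak had a q of 0.0285 and spanned 63215884 to 63216026 in exon 1. In replicate 1 an overlapping exon 1 peak had a fold of 3.30 and a q of 0.893, with its summit 120 nt away. In exon 3 the folds were 2.54 and 2.89 and the summits 14 nt apart. In the long exon 4, of 1521 nt, a shared peak with folds of 2.28 and 2.11 had summits 7 nt apart.

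YTHDF3 (ENSG00000185728.17, chromosome 8, 63168553 to 63212786, plus strand) had 7 exonic peaks in each replicate, and 6 and 7 of them overlapped a peak of the other. It thus had the largest share of overlapping peaks among the members. Folds ranged from 2.10 to 3.12 in replicate 1 and from 2.06 to 4.08 in replicate 2, and no peak reached a q of 0.05. The strongest, of 4.08 with a q of 0.156, was in exon 3, where replicate 1 had a fold of 2.35. In the 3′ UTR both replicates placed a summit on the same base, 63209860, which lies 154 nt past the CDS, with folds of 3.12 and 2.90. Peaks of YTHDF3 were also wide, up to 1018 bp in replicate 1.

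YTHDF2 (ENSG00000198492.16, chromosome 1, 28736621 to 28769775, plus strand), the reader known for directing methylated mRNAs to decay, had a single peak of 47 bp in exon 4 in replicate 1. Its fold was 2.41 and its q 1. The CDS of the 3 genes is of similar length, 1680 nt in YTHDF1, 1740 nt in YTHDF2 and 1758 nt in YTHDF3, and each canonical mRNA has 5 exons. The proteins translated from them were 69.0% identical between YTHDF1 and YTHDF2, 72.5% between YTHDF1 and YTHDF3 and 72.3% between YTHDF2 and YTHDF3 over aligned residues. Summits per kb of CDS were 2.38 and 1.79 for YTHDF1, 1.71 and 2.28 for YTHDF3, and 0.575 and 0 for YTHDF2 in replicates 1 and 2. The values of YTHDF1 and YTHDF3 overlapped, whereas those of YTHDF2 lay below both in each replicate.

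On the aligned proteins, YTHDF1 and YTHDF3 both had peaks at exon 3. That exon is 80 nt long in YTHDF1 and 86 nt in YTHDF3, so any summits there lie close on the alignment. The exon 3 summit of YTHDF1 in replicate 1 fell in codon 34, which aligns with codon 35 of YTHDF3, the codon of the exon 3 summit of YTHDF3 in replicate 2. The match thus paired different replicates. The other exon 3 summits were in codon 30 of YTHDF1 (replicate 2) and codon 27 of YTHDF3 (replicate 1). All 7 coding peaks of YTHDF1 overlapped an aligned YTHDF3 peak, but YTHDF3 peaks covered 85.3% of its codons with both replicates combined, so that this count says little about position. YTHDF1 peaks covered 53.8% of its codons. The YTHDF2 summit fell in codon 327, which aligns with codon 322 of YTHDF3, and the nearest YTHDF3 summit was 9 codons from there.

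YTHDC1 (ENSG00000083896.13, chromosome 4, 68310387 to 68350090, minus strand), which acts in splicing and nuclear export, had 5 peaks in replicate 1 and 1 in replicate 2. None overlapped between the replicates. The strongest had folds of 3.58 in exon 16 in replicate 1 and 2.81 in exon 12 in replicate 2, with a q of 0.224 and 1. One replicate 1 summit, at 68318740, was in an exon absent from the canonical mRNA. The other 5 summits lay in the CDS, and the 3712 nt of 3′ UTR had 0.

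YTHDC2 (ENSG00000047188.16, chromosome 5, 113513694 to 113595285, plus strand), known for its part in germ cell meiosis, had 5 peaks in each replicate. All lay in the CDS, which at 4293 nt is the longest of the members. The highest folds were close, 3.10 in exon 28 in replicate 1 and 3.18 in exon 23 in replicate 2, a mean of 3.14 ± 0.0565 (SD, n = 2). They came from different exons, and 1 site alone, in exon 25, was found in both lists, with folds of 2.67 and 2.36. The equal counts of YTHDC2 therefore came with mostly different positions, 9 sites in all of which 1 was shared.

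FMR1, whose loss causes fragile X syndrome (ENSG00000102081.16, chromosome X, 147911919 to 147951125, plus strand), had 6 peaks in replicate 1 and 9 in replicate 2. Of these, 3 in each overlapped between replicates, in exons 7, 16 and 17. The exon 16 summits were 2 nt apart, with folds of 3.33 and 3.24. In exon 17, the last exon, the summits were 31 nt and 108 nt before the end of the CDS, with folds of 2.92 and 2.98. The highest FMR1 folds, 4.33 in exon 11 in replicate 1 and 3.73 in the 3′ UTR in replicate 2, had no overlapping peak in the other replicate. Their q values were 0.0728 and 0.435. By density FMR1 followed FTO, with 3.16 and 3.69 summits per kb of CDS. Both values lay below those of FTO, the nearest being 3.69 for FMR1 and 3.95 for FTO, both in replicate 2.

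HNRNPA2B1 (ENSG00000122566.22, chromosome 7, 26171151 to 26201529, minus strand) and HNRNPC (ENSG00000092199.19, chromosome 14, 21209136 to 21269494, minus strand) had 0 exonic peaks in both replicates. Their canonical mRNAs are 3628 and 3165 nt long. With protein-coding genes split by mRNA length into 4 classes of equal size, 37.6% of genes in the class of these mRNAs had a peak in both replicates, and YTHDF1, FMR1 and ALKBH5 fall in the same length class. The annotation holds 13 genes named as copies of HNRNPC, 9 of them pseudogenes, and these had 0 exonic peaks in either replicate as well. No gene named as a copy of HNRNPA2B1 was found.

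**Figure D2:**
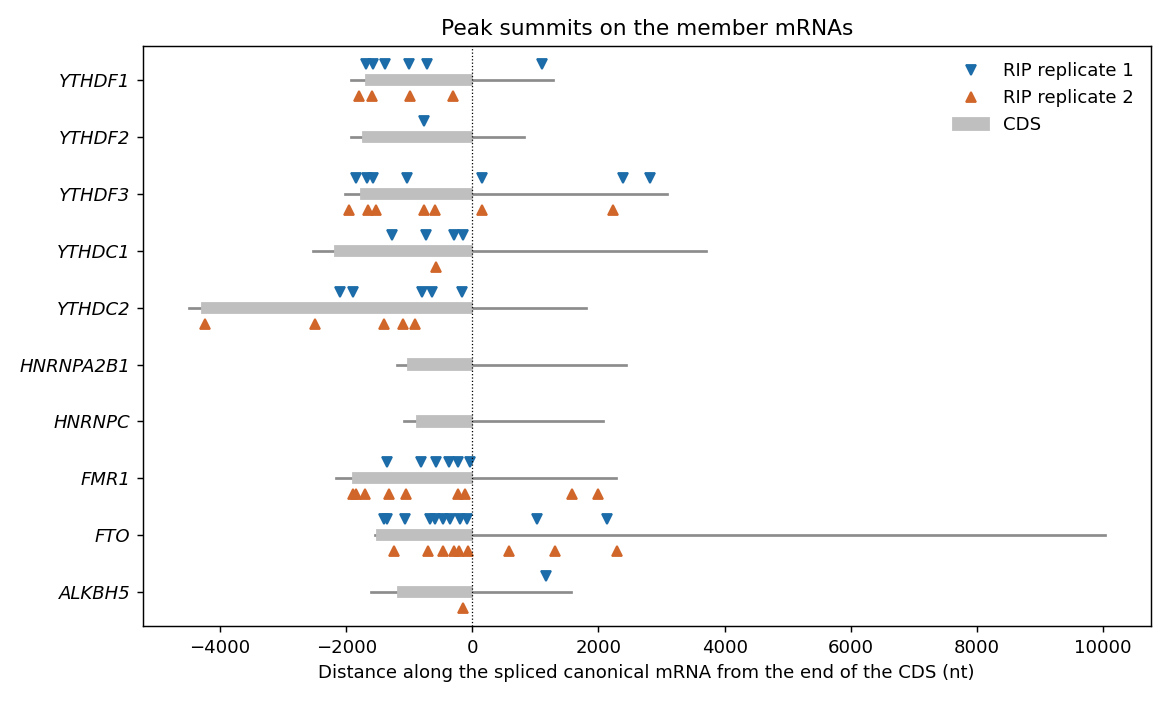
Positions of peak summits along the spliced canonical mRNA of each member, in nt from the end of the CDS (dotted line), with thin lines for UTRs, grey boxes for the CDS and triangles for RIP replicate 1 (above) and replicate 2 (below). FTO summits crowd in the CDS and stop at 2300 nt into its 3′ UTR of 10026 nt, and YTHDC1 and YTHDC2 have none past the CDS.

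Across the members, summits were found mainly in coding sequence. Of the summits on canonical mRNAs, 27 of 41 in replicate 1 and 24 of 36 in replicate 2 lay in the CDS outside a window of 200 nt on either side of its last base. That was 66.3% ± 0.575 (SD, n = 2), against 71.6% ± 1.14 (SD, n = 2) of all mRNA summits, while this part made up 32.6% of the members' mRNA length. The window around the end of the CDS held 6 and 4 summits, or 12.9% ± 2.49 (SD, n = 2), against 8.47% of all mRNA summits and 8.09% of the members' length. The 3′ UTR beyond the window held 6 summits in each replicate, 15.7% ± 1.44 (SD, n = 2), against 16.2% of all mRNA summits and 54.7% of the members' length. The 3′ UTR length of the members rests in part on the annotated FTO 3′ UTR of 10026 nt, whose use in these cells is not known here. The 5′ UTR held 2 summits in each replicate, from YTHDF1 and YTHDF3 alone. The members' shares for the CDS and 3′ UTR were thus near those of all mRNA summits.

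Per kb, the 7 members with a peak in both replicates had 2.0 ± 0.195 summits in the CDS and 0.295 in the 3′ UTR (SD, n = 2), the latter the same in both replicates. For all protein-coding genes with an mRNA peak in both replicates these were 2.36 and 0.497. The 3′ UTR length of these members was 23746 nt, of which FTO gave 10026 nt. Whether the cells use this long FTO 3′ UTR is not known here. By CDS density FTO stood at percentile 91.1 of the 5352 protein-coding genes with an mRNA peak in both replicates, and FMR1 at percentile 75. Over the whole mRNA, with its long 3′ UTR, FTO had 0.864 peaks per kb, below the median of 1.15 and at percentile 36.7 of genes with a peak in both replicates, and FMR1 had 1.69, at percentile 68.5. By CDS density, YTHDF1 and YTHDF3 were near the median of 2.04 per kb, at percentiles 51.1 and 48.9. By the same measure YTHDC2 and YTHDC1 were at percentiles 28.6 and 28.1, and ALKBH5 at 8.45. The CDS densities count peaks and not covered length, and a site across a splice junction can appear as separate peaks in neighbouring exons. Peaks of YTHDF3 covered 85.3% of its codons with both replicates combined, although its CDS density was near the median. Whether exon structure shaped these ranks was not tested.

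**Figure D3:**
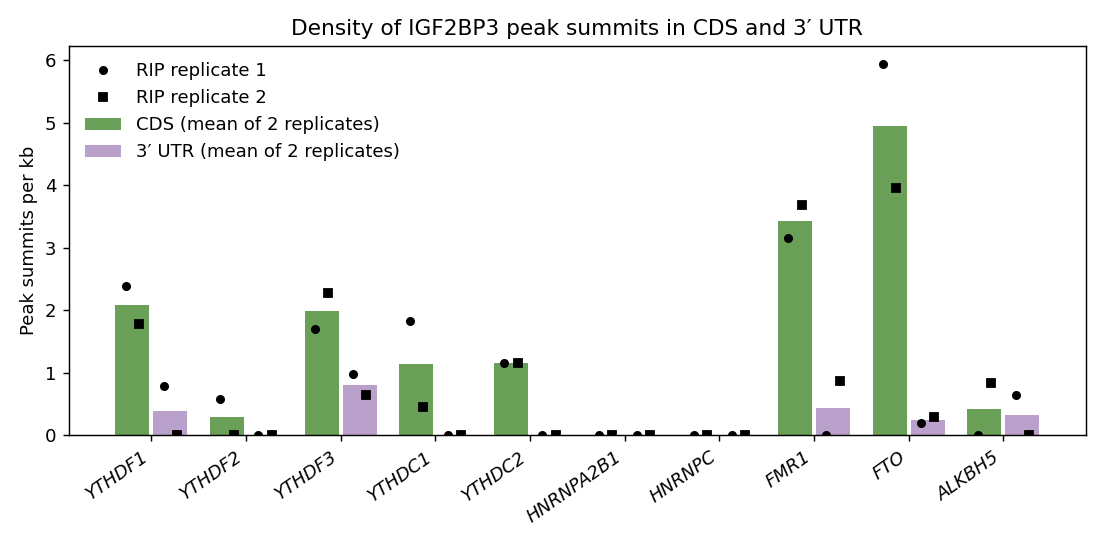
Peak summits per kb (vertical axis) in the CDS (green bars) and 3′ UTR (purple bars) of each member as the mean of 2 RIP replicates, with circles for replicate 1 and squares for replicate 2. The CDS bar of FTO is the tallest at 4.94 per kb, and its 3′ UTR bar is 0.249.

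**Figure D4:**
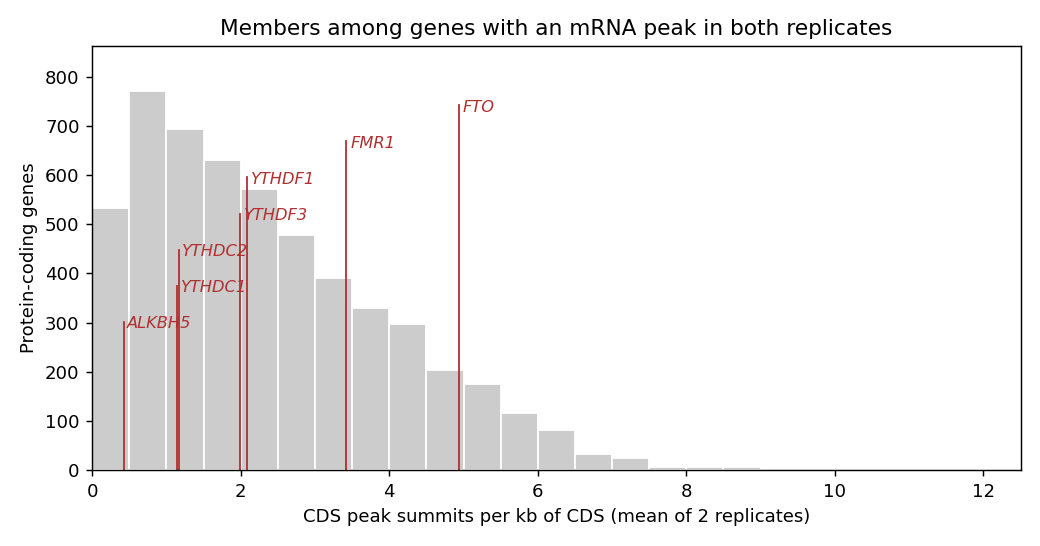
Number of protein-coding genes with an mRNA peak in both replicates (vertical axis) by CDS summits per kb of CDS (horizontal axis, mean of 2 RIP replicates, 1 gene beyond the axis is not drawn), with red lines at the 7 members among them. FTO at 4.94 lies in the upper tail, FMR1 follows at 3.42, and YTHDF1 and YTHDF3 lie near the median of 2.04.

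The replicates were set against each other over all member peaks. Of these, 21 of 42 in replicate 1 and 22 of 36 in replicate 2 overlapped a peak of the other list by at least 1 bp, or 55.6% ± 7.86 (SD, n = 2), against 62.7% ± 2.70 of all exonic peaks. Merging overlapping member peaks gave 56 sites, of which 21 were found in both replicates. Sites were not merged over all exonic peaks, so this count has no share of all sites beside it. FTO with 8 and YTHDF3 with 6 held 14 of the 21 shared sites. The median fold of member peaks was 2.77 in replicate 1 and 2.93 in replicate 2, against 2.93 in both replicates over all exonic peaks. Shared member peaks had median folds of 2.74 and 3.06 and the others of 2.81 and 2.72, so that the order of the classes differed between replicates.

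Few member peaks passed after the caller's correction. In each replicate 2 peaks had a q no higher than 0.05, 5.16% ± 0.561 of member peaks, against 8.90% ± 1.69 of all exonic peaks (SD, n = 2 each). A q of 1 was given to 29 of 42 and 25 of 36 member peaks, 69.0% and 69.4%, against 60.9% and 66.0% of all exonic peaks. The 4 peaks past this limit were those of FTO exons 2 and 7 in replicate 1, FTO exon 8 in replicate 2 and YTHDF1 exon 1 in replicate 2. FTO and YTHDF1 were thus 2 of 10 members with such a peak in either replicate, beside 10.3% of protein-coding genes. FTO was the sole member with one in both replicates, beside 4.98% of protein-coding genes, although its peaks past the limit were at different sites.

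Short sequences were counted on the sense strand in windows reaching 50 nt up- and downstream of each summit along the mRNA. GGAC was present in 11 of 41 windows in replicate 1 and 15 of 36 in replicate 2, 26.8% and 41.7%, against 31.9% and 32.0% of all mRNA summit windows. TGGAC, which contains GGAC, was present in 6 and 8 windows, 14.6% and 22.2%, against 12.8% and 12.9%. For both the replicates lay on either side of, or unequally far from, the share of all windows. CACA was present in 13 windows in each replicate, 31.7% and 36.1%, against 38.6% and 38.0%. CAT, the start of another sequence known from IGF2BP binding studies, was present in 80.5% and 77.8% of windows, against 79.1% and 79.3%. A match describes these letters and is no measure of methylation or binding.

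The relatives and partners of the members were taken from lists of 40 genes, chosen with earlier results of these data known. Of these genes 16 had exonic peaks in both RIP lists and 20 in neither. Over all annotated protein-coding genes, expressed or not, these shares were 28.1% and 63.8%. The counts of each list below were not tested against these shares or matched for mRNA length. Of the 7 AlkB homologues other than ALKBH5 and FTO, which repair or modify nucleic acids, ALKBH1 and ALKBH8 had peaks in both replicates, and ALKBH2, ALKBH3, ALKBH4, ALKBH6 and ALKBH7 had none. Of the 8 hnRNP relatives of HNRNPA2B1 and HNRNPC, none had a peak in both replicates. HNRNPA3 had 2 peaks in replicate 1, and HNRNPA0, HNRNPA1, HNRNPAB, HNRNPD, HNRNPDL, RALY and RBMX had none. Of the FMR1 paralogs, FXR1 had 2 and 4 peaks with highest folds of 3.75 and 3.96, and FXR2 had none.

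Of the 8 other proposed readers, 5 had peaks in both replicates and IGF2BP1 had none. The mRNA of IGF2BP3 itself had the highest fold of the 40 genes, 6.23 and 6.47, with 14 and 12 peaks. PRRC2A had folds of 5.95 and 4.08 and 18 and 22 peaks. Of the 9 writer genes, which install the mark, 6 had peaks in both replicates. VIRMA, the scaffold of the writer complex, had folds of 5.68 and 5.07, whereas METTL3, the catalytic subunit, and RBM15B had none. Of the 6 partners and effectors of YTH proteins, XRN1 and CNOT1, which act in mRNA decay, had peaks in both, and UPF1, RIDA, MEIOC and SRSF3 had none.

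Among 5522 other protein-coding genes with a peak in both replicates, those nearest to FTO in peak count and highest fold were UBE2D4, NUFIP2 and SCAMP1. The distance was taken over 4 log2 values, the count and the highest fold of each replicate. UBE2D4 was at a distance of 0.150, with 10 and 9 peaks and highest folds of 4.45 and 5.59. NUFIP2 was at 0.163 with 11 and 10 peaks, and SCAMP1 at 0.182 with 10 and 9.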

How the data were processed

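IGF2BP3 RIP and input libraries of OE-19 cells were grouped by sample title (2 each), and 2 RIP peak lists were used. Per the methods of the study, Tophat2 mapped the reads to hg38 and MACS2 called the peaks, whereas the submitters' processing notes list fastp, HISAT2 and MACS2. Which library was the caller's control is not given in the sources used here. The deposited columns were the fold enrichment (a ratio), the −log10 p, the −log10 q and a score, all from the authors' caller and made per replicate. Read depth is unknown, so no counting interval was given. The lists carry no strand. Peaks were called on the genome, so a site across a splice junction can appear as separate peaks in neighbouring exons.

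Summits (start plus offset, first base as 1) were assigned to GENCODE 44 exons, and to the Ensembl canonical mRNA for positions. Chromosome names and the build of the lists match that annotation. Values are means ± SD over 2 replicates. The paper calls the replicates biological, but nothing in the labels says they came from separate cultures, so the SD may still be partly technical. Percentiles count ties at their middle. YTHDF proteins were translated from the canonical CDS and aligned globally (BLOSUM62, gap opening 11, extension 1). RefSeq protein sequences, which the plan named, were not used here. No statistical test was made. Named genes were all members, the 3 related genes with the highest mean of the highest fold, the related genes without a peak, and the 3 genes nearest to FTO. ALKBH1, ALKBH8, FXR1, HNRNPA3, XRN1 and CNOT1 were named after their values were seen. The members and lists were chosen with earlier results of these data known. Alternatives were limits on q (0.05), fold (5) and p (1e-05), other assignments, overlaps, transcripts and windows, and leaving out each replicate. The placing of summits on mRNAs was tested on simulated data. Python 3.11.15, numpy 2.4.6, pandas 2.3.3, biopython 1.88 and matplotlib 3.10.9 were used.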

Additional observations from a re-analysis of the deposited data

Results flagged for a closer look

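Peaks with a summit inside a member gene but in no exon of it lie outside the comparisons above, and no control list was at hand for them. There was 1 such peak in replicate 1 and 3 in replicate 2. Both peaks inside HNRNPA2B1, 1 per replicate, had their summits in exons of NFE2L3, a gene annotated across the same stretch. Their folds were 2.43 in replicate 1 and 3.43 in replicate 2, at different positions, and the lists carry no strand. The replicate 2 summits inside YTHDF1 (fold 3.29) and YTHDC1 (fold 2.43) lay 4 nt and 15 nt from an exon of those genes, and both peaks overlapped that exon.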

How the results depend on the processing

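No paired analysis was possible because only the RIP samples were analysed and no result comes from a test between groups. Limits on the lists changed the members most, since few member peaks pass them. With a q of at most 0.05, FTO alone of the members had a peak in both replicates (1 member). The mean number of member peaks was 2, and 75% of them overlapped a peak of the other list. That list was kept whole for this overlap, here and under the limit on p. The peaks past the q limit were all at different sites, so none overlapped another of them. Of their summits 75% were in the CDS and 0% in the 3′ UTR, and 0% of windows held GGAC. With a p of at most 1e-05 these were 1, 3.5, 75%, 83.3% and 0%, and 41.7% of windows held GGAC. With a fold of at least 5, 0 members had a peak in both replicates and the mean was 1 peak, so the shares were not defined. When 50% of each peak had to be covered, 41.3% were shared, and summits within 50 nt gave 28.4%. The overlap shares under these alternatives were not computed over all exonic peaks. A window of 100 nt around the end of the CDS gave 72.7% in the CDS and 18.3% in the 3′ UTR. The longest coding transcript gave 78.5% and 5.76%. For FTO that transcript is 2889 nt long and lacks the long 3′ UTR, so that 9 and 6 of its summits were placed. GGAC was present in 22.3% of windows of 25 nt and 52.2% of windows of 100 nt on either side. Of 28 member totals and shares recomputed, 7 stayed within the limit used, which for shares was 1 SD. Of 12 highest folds recomputed, 10 moved by less than 1 SD. Any exon overlap, which can only add peaks, left every highest fold unchanged. Over peaks shared with the other replicate, that of FMR1 fell to 3.28 and that of YTHDC2 to 2.51, and YTHDC1 and ALKBH5 had none. Assigning peaks by any exon overlap gave 7 members in both replicates, and by gene body 8, HNRNPA2B1 being added by peaks in NFE2L3 exons. With 2 replicates, leaving out either moves a mean by less than 1 SD by construction.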
